A study of Mus musculus with 32 samples.

Results

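The binding of Bcl11b was compared with that of GATA3 in ILC2/b6, a mouse line of group 2 innate lymphoid cells (ILC2s). The regions were all 21677 Bcl11b peaks and all 33709 GATA3 peaks listed for the line, of 215616 peaks in the 8 lists of the series. A Bcl11b and a GATA3 interval that overlapped by at least 1 bp were counted as common. This split the 47798 sites into 7588 common sites, 14089 Bcl11b peaks without GATA3 and 26121 GATA3 peaks without Bcl11b. Every common site joined 1 peak of each list.

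The series set ILC2/b6 beside Scid.adh.2c2, a pro-T-like line, with ChIP-seq for Bcl11b, GATA3, Runx1 and Runx3 in both. The ILC2/b6 cells carried no stated genetic change in the ChIP libraries and were grown, in both assays, in medium holding 10 ng/ml each of the cytokines IL-2, IL-7 and IL-33. Each ChIP group had 2 libraries, which the authors merged into 1 peak list, so peaks have no replicate error and shares of peaks were not tested. RNA-seq of the line had 2 libraries transduced with a control guide (sgControl-CFP) and 2 with a guide against Bcl11b (sgBcl11b-CFP). ILC2/b6 is a single line, and antibody mixtures were used for Bcl11b and for GATA3, so differences in antibody performance cannot be told apart from differences in binding.

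Bcl11b is a zinc finger transcription factor that is needed for T-lineage commitment and that helps to keep mature ILC2s in their identity. GATA3, which binds the core letters GATA, is required for ILC2 development and acts directly at the genes of the type 2 cytokines. Runx1 and Runx3 bind DNA with the subunit Cbfb and are common partners of both factors in lymphocytes, at promoters and at distal enhancers.

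Promoters of 5 genes are given as examples at the level of DNA and need not be typical of their class. Each line holds the 250 bases before the RefSeq start site, with GRCm38.p6 coordinates, written in the direction of the gene. The peak lists are on mm9, so a gene and a peak were joined by gene name and distance to the start, not by coordinates. Capitals mark the matches on either strand to GATA letters (GATAA or GATAG after an A or a T), RUNX letters (TGTGGT and also its common variant TGCGGT) and ETS letters (CCGGAA). Il9r and P2rx1 are shown for common sites, Il13 and Areg for Bcl11b without GATA3, and Atf3 for GATA3 without Bcl11b.
Il9r promoter, chr11:32200280-32200529, minus strand: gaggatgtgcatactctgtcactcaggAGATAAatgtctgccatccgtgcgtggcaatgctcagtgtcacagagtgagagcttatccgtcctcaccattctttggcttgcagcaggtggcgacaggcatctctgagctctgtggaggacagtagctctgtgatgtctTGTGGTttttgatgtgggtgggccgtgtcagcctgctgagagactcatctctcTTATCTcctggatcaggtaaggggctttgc
P2rx1 promoter, chr11:72998895-72999144, plus strand: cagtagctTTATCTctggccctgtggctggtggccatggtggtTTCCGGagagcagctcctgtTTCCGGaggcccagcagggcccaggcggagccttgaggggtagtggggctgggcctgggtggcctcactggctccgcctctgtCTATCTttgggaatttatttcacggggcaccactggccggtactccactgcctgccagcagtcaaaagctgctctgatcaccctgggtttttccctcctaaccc
Il13 promoter, chr11:53634703-53634952, minus strand: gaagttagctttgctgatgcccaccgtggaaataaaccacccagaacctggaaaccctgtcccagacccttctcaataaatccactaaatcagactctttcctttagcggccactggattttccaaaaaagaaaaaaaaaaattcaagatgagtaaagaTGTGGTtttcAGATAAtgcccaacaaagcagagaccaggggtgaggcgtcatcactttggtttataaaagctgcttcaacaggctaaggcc
Areg promoter, chr5:91139349-91139598, plus strand: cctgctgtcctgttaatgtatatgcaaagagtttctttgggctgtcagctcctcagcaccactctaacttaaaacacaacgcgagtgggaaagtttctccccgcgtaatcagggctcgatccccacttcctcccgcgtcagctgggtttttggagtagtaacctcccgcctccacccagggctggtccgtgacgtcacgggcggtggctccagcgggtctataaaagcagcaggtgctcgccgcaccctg
Atf3 promoter, chr1:191183334-191183583, minus strand: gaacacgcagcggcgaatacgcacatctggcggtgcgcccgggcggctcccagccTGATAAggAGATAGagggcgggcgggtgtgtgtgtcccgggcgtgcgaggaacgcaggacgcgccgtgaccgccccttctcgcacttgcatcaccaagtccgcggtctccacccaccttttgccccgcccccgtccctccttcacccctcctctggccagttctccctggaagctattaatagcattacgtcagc

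Il9r, the receptor chain for interleukin 9, had a common site whose GATA3 peak was centred at -19 bp from its start. Its Bcl11b score was 64.3 and its GATA3 score 198.3 (the authors' peak scores, which rank peaks only within a list). The window of Il9r held GATA letters at -223 and -30 and RUNX letters at -83, counted from -1 at the base before the start. Il13, a type 2 cytokine, had RUNX letters at -91 and GATA letters at -81, yet its promoter peak (Bcl11b score 149.4, centre at -73) had no overlapping GATA3 peak. The printed window of Areg, which encodes the growth factor amphiregulin, held none of these letters, and its Bcl11b peak without GATA3, of score 46.7, was centred 39 bp after the start, outside the window. The window of Atf3, a stress-response transcription factor, held GATA letters at -195 and -187, and its GATA3 peak without Bcl11b, of score 28.9, was centred at -196. P2rx1, an ATP-gated channel, had a common site whose GATA3 peak was centred at -232, with scores of 77.8 for Bcl11b and 21.8 for GATA3.

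These letters were then counted in genes with 1 RefSeq promoter window (250 bases before to 50 after the start) and a peak centre in it. Of the genes with such a peak, 150 of 252 could be matched for common sites, 1555 of 2466 for Bcl11b without GATA3 and 139 of 232 for GATA3 without Bcl11b. GATA letters were present in 47.3% of the common promoters, 13.2% of those with Bcl11b without GATA3 and 62.6% of those with GATA3 without Bcl11b, beside 30.6% of all 22631 windows. RUNX letters were present in 26.0%, 24.6% and 19.4%, beside 22.3% of all windows. ETS letters were present in 36.0%, 43.9% and 16.5%, beside 15.3% of all. The median GC content was 58.7%, 64.0% and 53.3% in the same order, and 52.7% in all windows. Among windows with 60% GC or more, a limit chosen after the values were seen, GATA letters were present in 43.8% of 64 common promoters, 8.36% of 1065 with Bcl11b without GATA3, 52.6% of 38 with GATA3 without Bcl11b and 9.66% of all 6524. Such a match is a description of letters and not of binding.

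The common sites made up 35.0% of the Bcl11b peaks and 22.5% of the GATA3 peaks. The exact binomial 95% intervals of these shares, 34.4 to 35.6% and 22.1 to 23.0%, cover counting error only, as do all intervals on shares here. The centres of the paired peaks lay a median of 35 bp apart, and 63.8% of pairs lay within 50 bp, where the intervals were 255 bp wide for Bcl11b and 289 bp for GATA3. Near misses were a larger share on the Bcl11b side, while their numbers within 1000 bp were close, at 2554 for Bcl11b and 2459 for GATA3. A GATA3 peak lay within 1000 bp of 18.1%, and within 10000 bp of 59.1%, of the Bcl11b peaks without GATA3. A Bcl11b peak lay within 1000 bp of 9.41% and within 10000 bp of 35.2% of the GATA3 peaks without Bcl11b.

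Joint occupancy was more frequent among peaks of higher score, with the wider range for GATA3. With the GATA3 peaks ranked by score and cut into 5 equal bins, the common share went, from the lowest bin to the highest, from 7.59% through 10.4%, 15.6% and 25.8% to 53.1%. Over the same bins of Bcl11b scores it went from 29.8% to 44.5%. The median GATA3 score was 45.6 at common sites and 23.3 at GATA3 peaks without Bcl11b, and the median Bcl11b score was 29.9 at common sites and 26.3 at Bcl11b peaks without GATA3. How far the limit of each list shaped these shares was not tested.

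Promoters separated the 3 classes. Here promoter-TSS is HOMER's class around a transcription start site (TSS). It held 32.5% of the Bcl11b peaks without GATA3 (31.7 to 33.3%), 6.59% of the common sites (6.04 to 7.17%) and 3.46% of the GATA3 peaks without Bcl11b (3.24 to 3.69%). Read the other way, 9.85% of the 5078 promoter-TSS peaks of Bcl11b were common, beside 42.7% of its 16599 peaks elsewhere. For GATA3 the order was opposite, with 34.4% of its 1379 promoter-TSS peaks common and 22.0% of its 32330 other peaks. When promoters were redrawn as sites within 1 kb of a start in the gene models of the RNA table, an alternative added after the data were seen, the shares were 44.0%, 9.28% and 5.25% and kept their order.

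Common sites lay mostly in introns and between genes. Introns held 49.1% of common sites and intergenic DNA 39.4%. For GATA3 without Bcl11b these were 46.3% and 46.5%, and for Bcl11b without GATA3 33.8% and 23.1%. The median distance to a TSS was 19519 bp for common sites, 2052 bp for Bcl11b without GATA3 and 25646 bp for GATA3 without Bcl11b. Outside promoter-TSS the medians were 22137, 12086 and 27494 bp. Sites beyond 100 kb of any TSS were 12.0%, 4.37% and 20.0% of the classes.

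**Figure D1:**
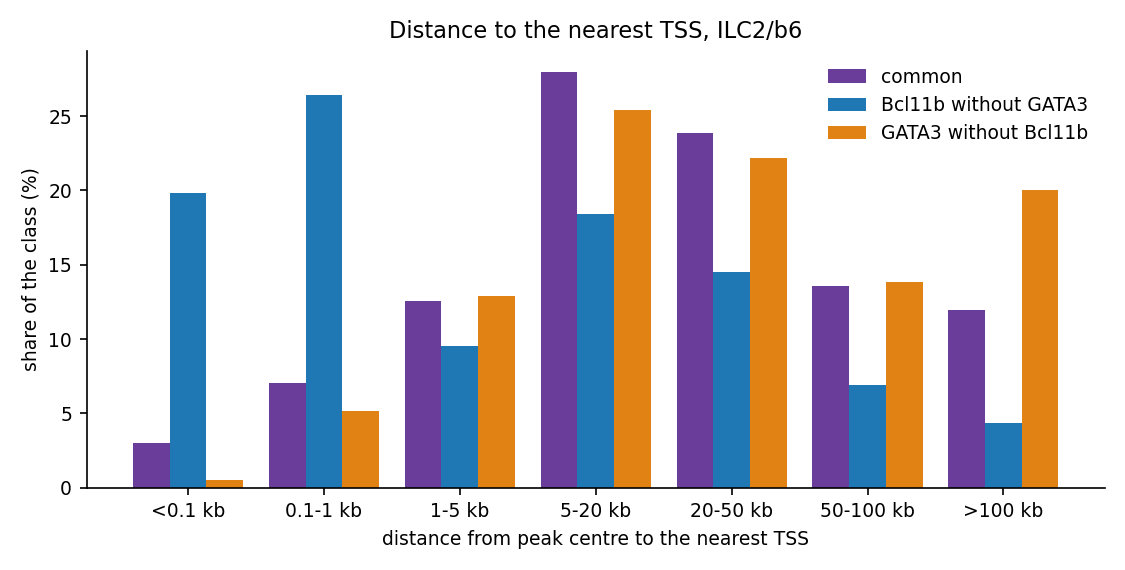
Share of each class (vertical axis, %) by distance from the peak centre to the nearest TSS (horizontal axis, bins in kb), for common sites (purple), Bcl11b peaks without GATA3 (blue) and GATA3 peaks without Bcl11b (orange). Bcl11b peaks without GATA3 had their highest bars within 1 kb of the start (19.8% under 0.1 kb and 26.4% from 0.1 to 1 kb), and both other classes had their highest bar at 5 to 20 kb (28.0% and 25.4%).

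Repeats and CpG islands divided the classes further. A repeat was the detailed annotation of 38.3% of GATA3 peaks without Bcl11b, 19.9% of common sites and 8.85% of Bcl11b peaks without GATA3. Simple repeats, short tandem runs, held 8.20% of GATA3 peaks without Bcl11b and 0.58% and 0.22% of the other classes. LTR elements, remnants of retroviruses, held 10.9%, 7.71% and 4.10% of GATA3 alone, common and Bcl11b alone. CpG islands outside promoters held 6.42% of Bcl11b peaks without GATA3, beside 0.67% of common sites and 0.23% of GATA3 peaks without Bcl11b. Reads from repeats can map to several places, and their treatment by the authors is not stated in the labels.

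Some of the highest scores lay at ribosomal RNA sequence or at pseudogenes. The top Bcl11b peak without GATA3 (score 2144) lay at chr17:39982048-39982302 in Rn45s, the ribosomal RNA precursor gene, and a GATA3 peak of score 1277.4 lay in the same gene at chr17:39983389-39983677. The top GATA3 peak without Bcl11b (4427.8) lay at chr16:86821095-86821383 in intergenic DNA, at -533191 bp from the start of N6amt1. The top common sites by Bcl11b score lay at the pseudogenes Pisd-ps3 (437.7) and Pisd-ps2 (329.0) and in an intron near Klhl35 (320.0). The other peaks among the top 3 of their class lay in an intron of Mocos (633.2) and in a ribosomal RNA repeat near Txndc11 (433.1) for Bcl11b, and in an intron of Tdrd1 (2157.7) for GATA3.

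Runx peaks lay at most Bcl11b sites and at few GATA3 peaks without Bcl11b. Runx3 peaks of ILC2/b6 overlapped 91.5% of the common sites, 81.5% of the Bcl11b peaks without GATA3 and 20.3% of the GATA3 peaks without Bcl11b. Runx1 peaks overlapped 85.4%, 63.2% and 10.9%. Both were present at 83.0%, 59.8% and 9.41%, and at least 1 of them at 93.9%, 84.9% and 21.8%. The order held outside promoter-TSS, where Runx3 overlapped 91.8%, 80.2% and 19.9%, and within it, where Runx3 overlapped 88.0%, 84.0% and 30.5%.

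The pro-T line shared different parts of the classes. Bcl11b peaks of Scid.adh.2c2 overlapped 43.4% of the Bcl11b peaks without GATA3, 21.0% of the common sites and 3.02% of the GATA3 peaks without Bcl11b. Within promoter-TSS the Bcl11b peaks without GATA3 overlapped 76.4%, and elsewhere 27.5%. GATA3 peaks of Scid.adh.2c2 overlapped 57.4% of the GATA3 peaks without Bcl11b and 32.5% of the common sites. They overlapped 0.71% of the Bcl11b peaks without GATA3, or 100 of 14089. Both factors of the pro-T line were found at 16.2% of the common sites, and neither was found at 62.8%.

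**Figure D2:**
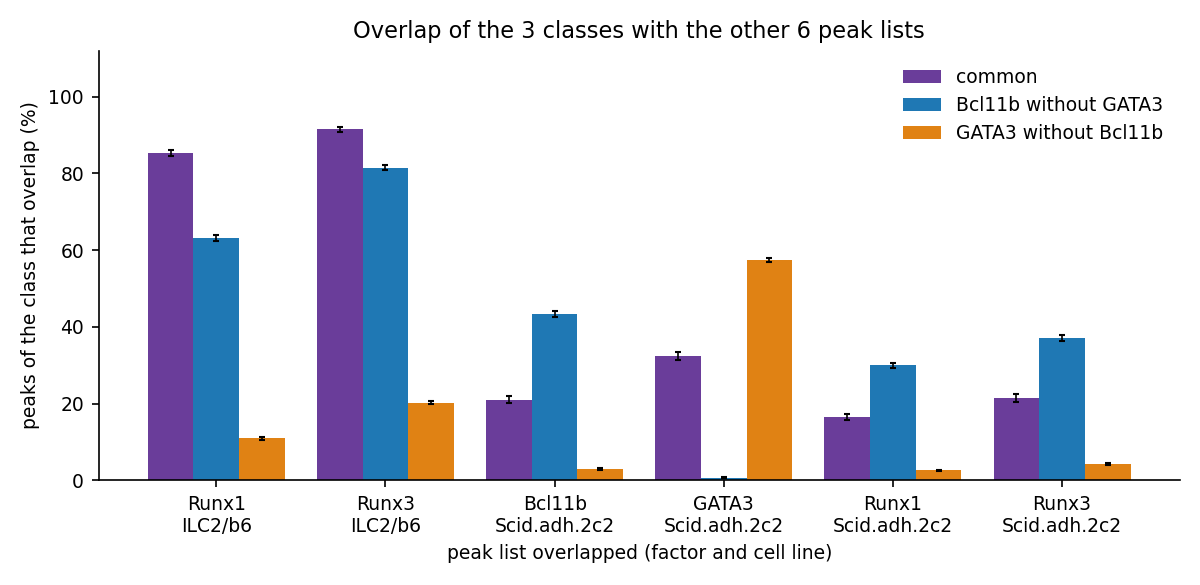
Share of each class (vertical axis, %) that overlaps each of the other 6 peak lists by at least 1 bp, with exact binomial 95% intervals as error bars (counting error only). Runx1 and Runx3 of ILC2/b6 cover most common sites (85.4% and 91.5%) and few GATA3 peaks without Bcl11b (10.9% and 20.3%), and the GATA3 list of Scid.adh.2c2 covers 57.4% of the latter.

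The type 2 cytokine locus showed all 3 classes side by side. From 5 kb outside Il4 to 5 kb outside Il5 on chromosome 11 (mm9) there were 25 sites, of which 9 were common, 8 were Bcl11b without GATA3 and 8 were GATA3 without Bcl11b. For common sites the coordinates are those of the Bcl11b interval and the distances those of the GATA3 peak. The Il4 promoter carried a common site at chr11:53430927-53431181, at -97 bp from the start, with a Bcl11b score of 88.0 and a GATA3 score of 204.8. The strongest common site of the locus lay at chr11:53449712-53449966, at -1617 bp from the Il13 start, with scores of 209.0 and 514.4. Around it, the Il13 promoter peak printed above (chr11:53448150-53448404) was Bcl11b without GATA3, and a GATA3 peak without Bcl11b of score 176.8 lay 570 bp inside the gene.

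Introns of Rad50, which hold the known control region of the locus, carried 3 common sites at -20672, -22333 and -28363 bp from the Il13 start, with Bcl11b scores of 123.3, 93.8 and 94.1 and GATA3 scores of 178.7, 114.0 and 124.9. Il5 differed from Il4 in its promoter-TSS class. The promoter-TSS peak of Il5 at chr11:53533310-53533564 was Bcl11b without GATA3 (score 64.8). It lay upstream of the Il5 start at 53534296 and did not cover it. GATA3 peaks without Bcl11b lay at -1383 and -2805 bp with scores of 70.4 and 94.0.

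**Figure D3:**
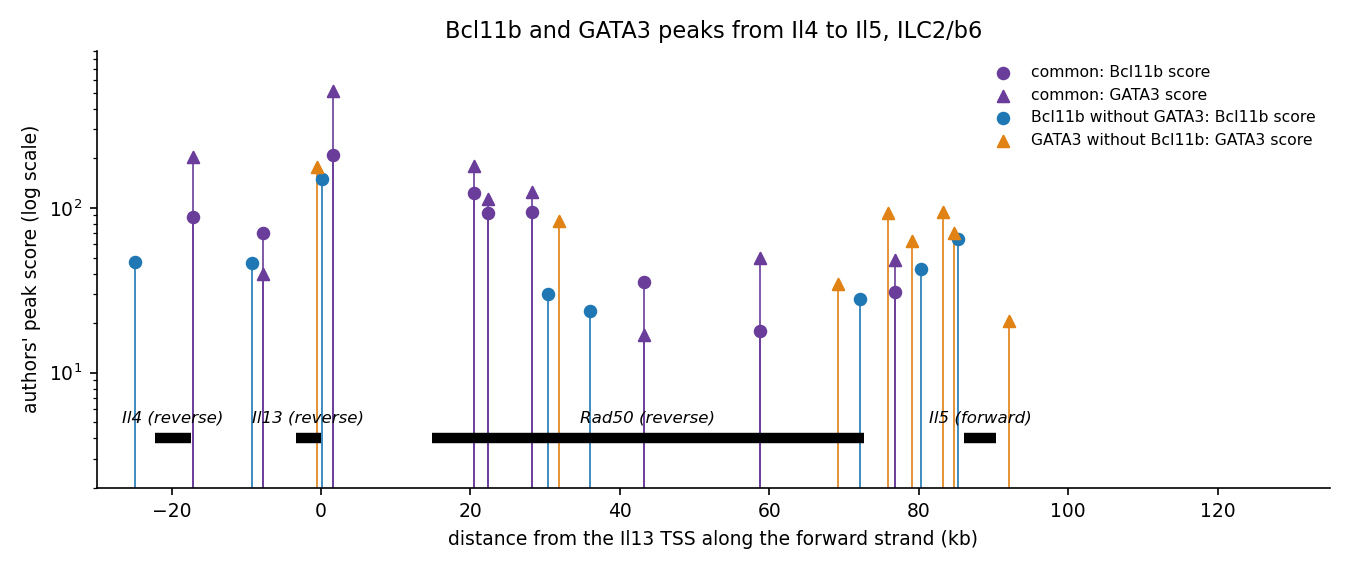
Authors' peak score (vertical axis, log scale) of each Bcl11b peak (circles) and GATA3 peak (triangles) against its distance from the Il13 TSS along the forward strand (horizontal axis, kb), coloured by class, with gene bodies as black bars. Common sites carry both symbols, and the tallest pair (209.0 for Bcl11b and 514.4 for GATA3) stands just upstream of Il13, which lies on the reverse strand.

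Most other ILC2 genes also had a joint site. Of 35 ILC2 identity and effector genes, 30 had a common site, beside 17.8% of all 24475 genes and 27.7% of the 10526 tested for expression below. Together the 35 had 97 common, 59 Bcl11b-alone and 109 GATA3-alone sites, each counted at the nearest gene. Gata3 itself had 7 common sites, none of Bcl11b without GATA3 and 15 of GATA3 without Bcl11b. Il7r, the receptor chain for interleukin 7, had 6, 0 and 8. Il1rl1, the receptor for IL-33, had 5 of each class, and its common site at -2092 bp from the start scored 67.8 for Bcl11b and 279.8 for GATA3. Bcl11b had 2 common sites, 5 of Bcl11b alone and 6 of GATA3 alone.

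The RNA libraries of the line were used to ask which genes near each class changed with the Bcl11b guide. Levels are the authors' RPKM, reads scaled to transcript length and library depth, and the depth that the lowest values imply was 35.2 to 38.7 M reads per library. Of 10 ILC2 markers all 10 reached a mean of 1 RPKM, beside 1 of 7 T-cell, 1 of 5 B-cell, 1 of 6 myeloid, 3 of 7 mast-cell, 2 of 6 NK-cell, 1 of 5 stromal and 1 of 4 erythroid markers. The stromal markers summed to 5.76 to 6.28 RPKM in the control and 11.2 to 13.0 with the guide, nearly all from Dcn, and the erythroid markers to 15.3 to 17.0 and 27.2 to 27.3, nearly all from Hba-a1. Their part in the results was not tested. The target gene, Bcl11b, stood at 6.85 and 6.33 RPKM in the control and at 7.04 and 7.24 RPKM in the guide libraries. The guide libraries were not lower than the control, and since an edit can leave the transcript in place, this level does not check the loss of the protein.

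Of 24475 genes, 10526 reached 1 RPKM in at least 2 of the 4 libraries and were tested with limma on log2(RPKM + 0.5), with Benjamini-Hochberg adjustment over all of them. Fold changes are guide minus control on that scale, which understates changes of low genes. A gene below 1 RPKM in both libraries of a group could enter the test only through the other group. For such a gene only 1 direction could be called. At an adjusted p under 0.05, 1530 genes were called, or 14.5%, with 876 higher (8.32%) and 654 lower (6.21%). The labels do not say that the libraries came from separate cultures, so p-values measure only the spread between them. Without the first or the second guide library, 933 or 779 genes were called. In bulk RNA, fewer cells of a type and less RNA per cell cannot be told apart.

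Genes with a common site were called more often than the genes of any other class. Each gene was assigned by nearest gene to 1 of 5 exclusive classes. Of the Bcl11b peaks without GATA3, 7.40% had no gene name and were linked to no gene, so the classes describe linked peaks only. Of 4354 genes with at least 1 common site, 2916 were tested and 647 were called, or 22.2% beside the 14.5% of all tested genes. Of 2537 genes with only Bcl11b peaks without GATA3, 1984 were tested and 245 called (12.3%). Of 5020 genes with only GATA3 peaks without Bcl11b, 1382 were tested and 153 called (11.1%). Genes with both factors apart reached 13.0% (294 of 2258) and genes with no peak of either list 9.62% (191 of 1986). Nearest genes were also taken from the gene models of the RNA table, an alternative added after the data were seen. The shares in the same order were then 22.2%, 12.3%, 10.4%, 12.9% and 9.85%. All these shares are descriptions of 1 comparison and carry no test of their own.

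Direction was mixed in every class. With common sites 349 genes rose and 298 fell, with Bcl11b alone 142 rose and 103 fell, and with GATA3 alone 100 rose and 53 fell. After centring each library on its median, the same split was 271 and 399, 102 and 148, and 78 and 76, and over all genes 649 and 909, so the balance of rises and falls depends on the scaling while the class shares stayed within 1 percentage point. The level of the gene went with the direction too. Of called genes with a common site, 96 rose and 45 fell below 5 RPKM in the control, and 123 rose and 164 fell at 20 RPKM or more, beside 298 and 106, and 241 and 356, of all called genes.

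The counts moved with single libraries, and the order of the common class did not. Without the first guide library 408 genes with a common site were called (14.2% beside 8.98% of all tested genes), without the second 358 (12.4% beside 7.49%), without the first control library 540 (18.6% beside 11.8%) and without the second 835 (28.8% beside 21.0%). Genes with only Bcl11b peaks without GATA3 and genes with only GATA3 peaks without Bcl11b were called at close shares whenever a guide library was left out. These fits leave a group with a single library.

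The share called was higher with more common sites, and varied less with the number of other sites. It was 11.6% of 7610 genes with no common site, 18.0% of 1780 with 1, 25.3% of 594 with 2, 31.2% of 368 with 3 to 4 and 35.1% of 174 with 5 or more. Among genes with no common site it went from 10.2% with no Bcl11b peak to 17.1% with 5 or more (6 of 35 genes). Over the same range of GATA3 peaks it went from 11.0% to 13.3% (26 of 195 genes).

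**Figure D4:**
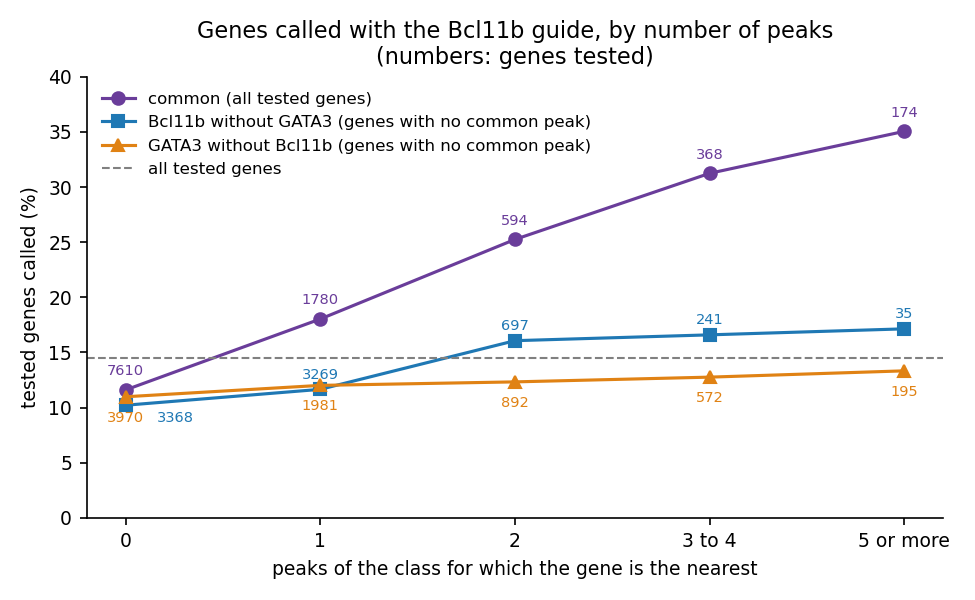
Share of tested genes called with the Bcl11b guide (vertical axis, %) by the number of sites for which the gene is the nearest (horizontal axis), for common sites over all tested genes (purple) and for the other classes over genes with no common site (blue, orange). The numbers are genes tested, the dashed line is the 14.5% of all tested genes, and the common series climbs from 11.6% to 35.1%.

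Levels differed with the number of sites, from a median control level of 9.37 RPKM in tested genes with no common site to 17.9 RPKM in those with 5 or more. Levels, and then the number of peaks, were therefore held in bins, an alternative added after the data were seen. Among genes at 20 RPKM or more in the control, 14.2%, 23.4%, 32.2%, 39.4% and 35.4% were called with 0, 1, 2, 3 to 4 and 5 or more common sites. Below 5 RPKM the shares were 10.9%, 15.9%, 19.9%, 30.8% and 32.3%, the last from 31 genes. At 20 RPKM or more, 28.3% of genes with a common site were called, beside 15.6% with only Bcl11b peaks and 13.5% with only GATA3 peaks. With the number of Bcl11b peaks held, the gap between genes with and without a common site varied by bin. With 1 Bcl11b peak, 15.0% of 678 genes were called where it was common and 11.7% of 3269 where it was not. With 2 peaks the shares were close, at 17.9% of 760 with at least 1 common and 16.1% of 697 with none. With 3 peaks they were 26.2% of 489 and 14.9% of 188, and with 4 to 5 peaks 25.2% of 520 and 19.7% of 76.

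Promoter peaks showed a smaller contrast. Genes were classed again, exclusively, by their promoter-TSS peaks. Of 394 tested genes with a common peak in promoter-TSS, 76 were called, or 19.3%. Of 3448 with only Bcl11b peaks without GATA3 there, 476 were called, or 13.8%, and of 435 with only GATA3 peaks without Bcl11b, 63 were called, or 14.5%. Of 205 with both factors there but apart, 33 were called, or 16.1%. Genes with no promoter peak of either list were called in 14.6% of 6044 cases. The level of the genes differed by class as well. The median control level over all genes was 4.94 RPKM with a common site, 7.44 with only Bcl11b peaks, 0.0098 with only GATA3 peaks and 0 with no peak. Of the 5020 genes with only GATA3 peaks, 27.1% reached 1 RPKM, beside 66.3% of those with a common site.

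Genes with a common site that rose most were surface receptors and a protease of innate cells. Cma1, the mast-cell chymase, measured 1.93 and 2.50 RPKM in the control and 24.1 and 24.3 RPKM with the guide (log2 change 3.20 ± 0.09 SE, limma adjusted p = 9.3e-06). Its common site lay at chr14:56541515-56541769, 21880 bp downstream of the start in intergenic DNA, with a Bcl11b score of 139.9 and a GATA3 score of 93.1. C5ar1, the receptor for a complement fragment, measured 0.13 and 0.05 RPKM in the control and 3.87 and 3.89 RPKM with the guide (2.90 ± 0.11), with a common site in its intron. Cd244, a receptor of natural killer cells, measured 0.40 and 0.39 against 5.55 and 5.92 RPKM (2.80 ± 0.08). Pilrb1, an activating receptor, measured 0.48 and 0.51 against 3.14 and 3.36 RPKM (1.92 ± 0.09), and it shares sequence with Pilra, so its reads may be split between them. C5ar1, Cd244 and Pilrb1 were below 1 RPKM in both control libraries, so they could only be called as rises. The 4 genes were picked by size of change among called genes, so the gap between their groups is not separate evidence.

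Genes with a common site that fell most were more varied. Fabp5, a fatty acid-binding protein, measured 532 and 489 RPKM in the control and 263 and 250 RPKM with the guide (-0.99 ± 0.05, limma adjusted p = 5.9e-05). Filip1, which binds filamin, measured 5.35 and 5.37 against 2.42 and 2.32 RPKM (-1.03 ± 0.07) and had 4 common sites. Tmem86a, a membrane enzyme, measured 24.8 and 18.0 against 8.88 and 9.20 RPKM (-1.18 ± 0.13). Prr5l, a partner of the mTOR complex, measured 1.48 and 1.27 against 0.30 and 0.37 RPKM (-1.17 ± 0.12). Prr5l was below 1 RPKM in both guide libraries, so it could only be called as a fall. The 4 genes were picked by size of change among called genes, so the gap between their groups is not separate evidence.

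Genes with only Bcl11b peaks without GATA3 included Fcer1g, a signalling chain of Fc receptors, at 0.82 and 0.44 RPKM in the control and 2.54 and 3.29 RPKM with the guide (1.61 ± 0.18, limma adjusted p = 0.0018). Ccbe1, a secreted protein of lymphatic growth, measured 0.53 and 0.58 against 2.81 and 3.19 RPKM, and Pilra, an inhibitory receptor, 0.59 and 0.53 against 2.84 and 2.76 RPKM. Fcer1g, Ccbe1 and Pilra were below 1 RPKM in both control libraries, so they could only be called as rises. Tff1, a secreted trefoil peptide, fell from 158 and 133 to 76.0 and 67.3 RPKM (-1.01 ± 0.09). The 4 Bcl11b peaks of Tff1 were 2 pairs with the same scores (26.7 and 26.0) on chromosomes 17 and 5, so they need not be separate sites. Tubb3, a tubulin, and Stac2 fell by 0.82 and 0.79 on the log2 scale. Stac2, below 1 RPKM in both guide libraries, could only be called as a fall.

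Genes with only GATA3 peaks without Bcl11b included the tryptases Tpsb2 and Tpsg1. Tpsb2 measured 5.18 and 5.66 RPKM in the control and 44.7 and 44.9 RPKM with the guide (2.94 ± 0.05, limma adjusted p = 8.5e-07), with its single GATA3 peak, of score 21.1, at -5569 bp from the start. Tpsg1 measured 2.37 and 2.00 against 5.93 and 6.68 RPKM. Fgf15, a growth factor, measured 0.09 and 0.10 against 1.03 and 1.17 RPKM. It was below 1 RPKM in both control libraries and could only be called as a rise. Anxa10, an annexin with 6 GATA3 peaks, fell by 0.77, and Bcl2a1b and Cacnb3 fell by 0.77 and 0.74 on the log2 scale. Bcl2a1b was below 1 RPKM in both guide libraries and could only be called as a fall. The tryptases and the Bcl2a1 genes have close copies, so reads may be split among them.

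**Figure D5:**
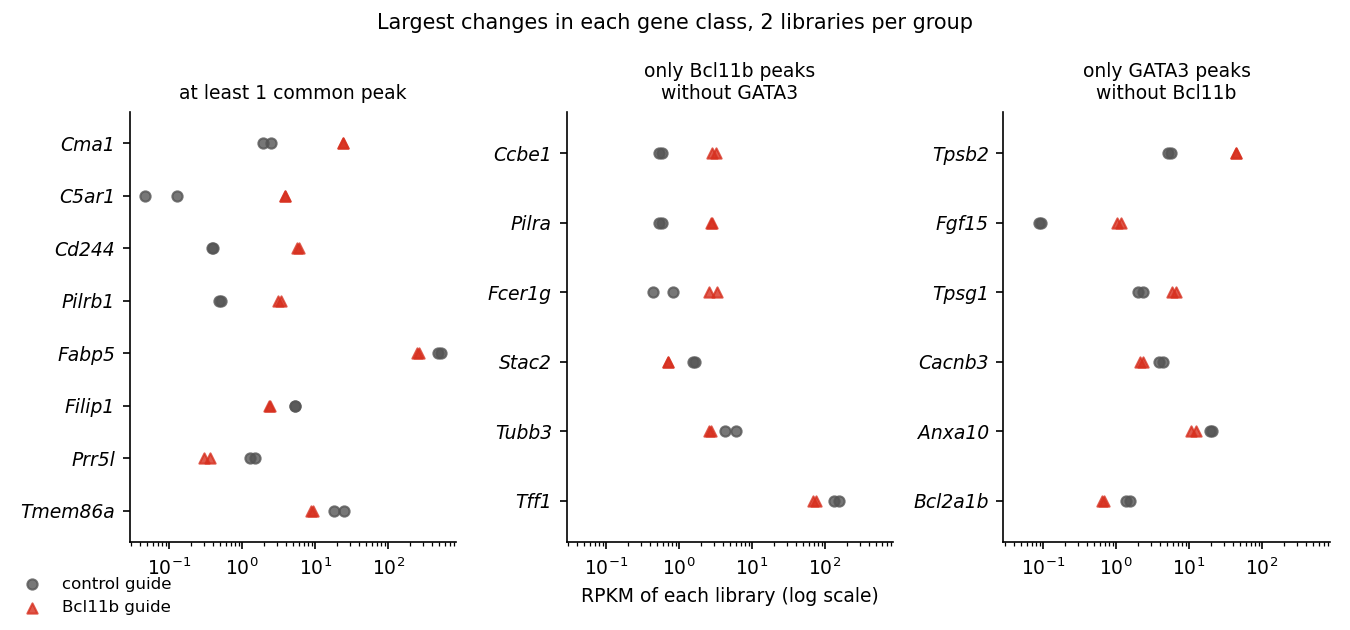
RPKM of each library (horizontal axis, log scale) for the genes with the largest rises and falls in 3 gene classes, with control libraries as grey circles and Bcl11b guide libraries as red triangles. In all 20 genes the 2 guide libraries stand apart from the 2 control libraries, as in Cma1 (1.93 and 2.50 against 24.1 and 24.3) and Tpsb2 (5.18 and 5.66 against 44.7 and 44.9). The genes were picked by size of change among called genes, so this gap is not separate evidence.

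Of the 8 genes with the most common sites only 1700061F12Rik, Nrip1 and Acvr2a were tested, and 1 was called. The share was 14.5% over all tested genes and 35.1% over those with 5 or more common sites. The gene 1700061F12Rik, of no stated function here, was nearest to 25 common sites and measured 55.0 and 58.4 RPKM in the control and 56.5 and 60.2 RPKM with the guide (0.04 ± 0.05, limma adjusted p = 0.62). Nrip1, a co-repressor of nuclear receptors, had 14 common sites and measured 15.8 and 18.3 against 18.6 and 19.8 RPKM (0.17 ± 0.07, adjusted p = 0.17). Without the second control library Nrip1 passed (0.28, adjusted p = 0.014). Acvr2a, an activin receptor, had 17 common sites and rose from 3.52 and 3.99 to 5.12 and 5.54 RPKM (0.46 ± 0.08). Mir6388, Pabpc2, H2afy3, 4930459C07Rik and Dleu2, with 14 to 18 common sites each, did not reach the level for testing.

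Several type 2 effector genes with common sites fell. Of 35 genes of the ILC2 list 32 were tested, of which 4 rose and 8 fell, beside 8.32% and 6.21% of all tested genes. The median log2 change was -0.0014, beside 0.02 over all tested genes. Il13 measured 4472 and 4406 RPKM in the control and 3025 and 3151 RPKM with the guide (-0.52 ± 0.04, limma adjusted p = 4.9e-04). Il5 measured 2671 and 2869 against 1881 and 1874 RPKM (-0.56 ± 0.05, adjusted p = 5.2e-04), and Areg 476 and 470 against 243 and 254.2 RPKM (-0.93 ± 0.04, adjusted p = 2.1e-05). Il4 measured 32.0 and 34.3 against 24.7 and 26.5 RPKM (-0.37 ± 0.05).

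Nmur1, the receptor for the neuropeptide neuromedin U, fell by 0.46 on the log2 scale. Alox5, the enzyme that starts leukotriene synthesis, rose from 10.5 and 10.4 to 21.5 and 22.4 RPKM (1.03 ± 0.05) and had 6 common sites. Icos, a costimulatory receptor, had 7 common sites and rose from 40.1 and 46.0 to 59.0 and 58.4 RPKM. Il1rl1 and Gata3 were not called, at 322 and 318 RPKM and at 149 and 157 RPKM as means of control and guide.

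Of 36 transcription factors of T and innate lymphoid lineages, 27 had a common site, beside 17.8% of all genes. Of the 36 factors, 27 were tested, 24 of them with a common site. Of those tested 2 rose and 7 fell, beside 8.32% and 6.21% of all tested genes, with a median log2 change of -0.03. Id3, an inhibitor of E proteins, rose from 5.70 and 5.88 to 9.80 and 9.10 RPKM (0.66 ± 0.06). Zbtb7b, a factor of CD4 T-cell fate, rose by 0.59 and had no peak of either list linked to it. Irf4, Maf, Runx2 and Ikzf3, all with a common site, fell by 0.39, 0.38, 0.33 and 0.32 on the log2 scale. Maf had 10 common, 11 Bcl11b-alone and 29 GATA3-alone sites.

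Of 23 genes of T-cell receptor signalling 8 were tested, of which 0 rose and 5 fell, with a median log2 change of -0.33. Over all 10526 tested genes 8.32% rose and 6.21% fell. Ubash3a, a phosphatase that dampens the signal, fell by 0.75, and the adaptor genes Grap2, Lat and Lcp2 fell by 0.52, 0.41 and 0.30 on the log2 scale. Lat had 1 linked site, a Bcl11b peak without GATA3 in its promoter, and Ubash3a, Grap2 and Lcp2 each had a common site. Zap70, a kinase of the same pathway, measured 56.3 and 56.0 against 56.0 and 56.7 RPKM.

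Of 31 cytokine receptors and signal regulators 30 were tested, of which 6 rose and 5 fell, beside 8.32% and 6.21% of all tested genes, with a median log2 change of 0.01. Csf2rb2, a receptor chain close in sequence to Csf2rb, rose from 11.7 and 12.8 to 20.6 and 21.4 RPKM. Il18rap, a receptor chain for interleukin 18, rose by 0.48, and Pim1, a kinase, fell by 0.34 on the log2 scale. Socs1, an inhibitor of cytokine signals with 8 common sites, rose by 0.24 at an adjusted p of 0.046, which it lost without the second guide library (0.13) and after median centring (0.084). Il2rg, with 1 GATA3 peak without Bcl11b, rose by 0.23.

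Of 20 mast-cell and protease genes 16 were tested, of which 13 rose and 0 fell, beside 8.32% and 6.21% of all tested genes. The median log2 change was 1.2, beside 0.02 over all tested genes. Several members were placed on this list with earlier results known, so its direction is not independent evidence. C5ar1, Tmem119, P2rx1, Pilra and Pilrb1, which all rose, are neither proteases nor among the mast-cell markers used here. C5ar1, Mcpt4, Pilra, Pilrb1 and Tmem119 were below 1 RPKM in both control libraries, so they could only be called as rises. Of the 20, 8 had a common site, beside 17.8% of all genes. P2rx1 rose from 5.38 and 5.26 to 17.6 and 19.4 RPKM (1.71 ± 0.06), with 3 common sites and none of the other classes. Tmem119 rose from 0.13 and 0.17 to 4.29 and 4.56 RPKM and had no peak of either list linked to it. The 7 mast-cell markers summed to 8.18 and 9.38 RPKM in the control libraries and to 71.6 RPKM in both guide libraries. Of these markers Ms4a2 was at 0 in all libraries, and Cpa3 and Fcer1a reached at most 0.056 and 0.028 RPKM. Cma1 and Tpsb2, which are on both lists, made up most of the rise in this sum.

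Of 25 natural killer and innate effector genes 11 were tested, of which 5 rose and 2 fell, beside 8.32% and 6.21% of all tested genes, with a median log2 change of 0.30. Fcgr3, an Fc receptor, rose from 6.48 and 6.06 to 13.2 and 13.1 RPKM (1.01 ± 0.05) with 1 common site. Gzmc and Prf1, of the killing granules, had both factors apart and rose by 0.41 and 0.39, and Gzma fell by 0.29 on the log2 scale. Cd244 and Fcer1g, which also rose, were below 1 RPKM in both control libraries and could only be called as rises.

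Of 28 trafficking and checkpoint receptors 19 were tested, of which 3 rose and 3 fell, beside 8.32% and 6.21% of all tested genes, with a median log2 change of 0.02. Tnfrsf9, a costimulatory receptor with 2 common sites, rose from 401 and 446 to 712 and 714 RPKM (0.75 ± 0.05). S1pr1, which guides exit from tissue, fell by 0.66 and Ctla4 by 0.33 on the log2 scale. Cxcr4 rose by 0.33 at an adjusted p of 0.041, which it lost without the second guide library (0.23), without the first guide library (0.067) and without the second control library (0.082).

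Of 20 immediate early genes 14 were tested, of which 1 rose and 6 fell, beside 8.32% and 6.21% of all tested genes, with a median log2 change of -0.12. Egr1 fell from 27.6 and 30.4 to 16.8 and 16.5 RPKM (-0.78 ± 0.05), and Dusp1, a phosphatase of kinase signals, from 9.13 and 9.48 to 5.20 and 5.28 RPKM (-0.77 ± 0.05). Fos measured 7.30 and 10.8 against 4.28 and 5.42 RPKM (-0.82 ± 0.17) and had 4 common sites. Dusp2, with both factors apart, fell by 0.57 at an adjusted p of 0.030, which it lost without the second guide library (0.063) or the first control library (0.10).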

How the data were processed

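ChIP-seq and RNA-seq of mouse cell lines were read from the files the authors deposited. Per the submitters' processing notes the tools were Bowtie 1.1.1, HOMER, Trimmomatic, STAR 2.4.0, RSEM 1.2.25 and edgeR 3.6.8, and the builds mm9 and NCBIM37, listed without the step each served. Each deposited peak list holds 1 interval set of both libraries, filtered for irreproducible discovery per the file headers, with a peak score by the authors and HOMER annotation. Input libraries were of 2 kinds of fixation, and the input behind each peak list is not stated in the labels. The 2 lists used different annotation releases: 1625 Bcl11b peaks and 0 GATA3 peaks lack a gene name, so common sites took their nearest gene from the GATA3 list. Distances given for single common sites are also those of the GATA3 peak. The 1043 unnamed Bcl11b peaks without GATA3 were linked to no gene. RPKM values are as the authors deposited them, and the low values tested matched whole reads within 0.1 read at the depths given.

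Overlaps were computed in Python 3.11.15, with exact Clopper-Pearson intervals from scipy 1.17.1. RPKM was tested with limma 3.58.1 (R 4.3.3, mean-variance trend) on log2(RPKM + 0.5), over the 2 groups of this line, after a check on simulated data. Named genes were, among called genes other than small RNAs, the 4 largest rises and falls with a common site and the 3 of each other class, the 8 genes with the most common sites, the top 3 peaks of each class, and up to 6 members of each list, by size of change among called members and then by common sites. One gene of a list is not reported here by name. The members and lists were chosen with earlier results of these data known. The kit is not stated to mark strand, so overlapping genes cannot be told apart. Promoter sequences are from RefSeq, GRCm38.p6. Alternatives changed the overlap rule, the score limit, the gene link, the filter, the pseudocount, the scaling and the libraries.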

Additional observations from a re-analysis of the deposited data

How the results depend on the processing

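The Bcl11b and GATA3 shares that were common moved with every overlap rule: 32.0% and 20.6% with 50% of the narrower interval covered, 29.8% and 19.1% with centres within 100 bp, 46.8% and 29.8% with intervals within 1000 bp, 32.0% and 20.6% in the upper 50% by score of each list, 30.3% of both lists at equal length, and 42.5% and 22.0% without promoter-TSS peaks. The promoter-TSS share of common sites was 5.77% with 50% overlap, 5.95% in the upper 50%, 10.0% within 1000 bp of a TSS and 9.28% by the RNA table. That of Bcl11b without GATA3 was 46.2% and 44.0% by the last 2 definitions, and that of GATA3 without Bcl11b was 3.75%, 4.47%, 5.67% and 5.25%. Median distances moved to 18491.5 bp (common, upper 50%), 2406 bp (Bcl11b alone, 50% overlap) and 22238 bp (GATA3 alone, upper 50%). Runx3 overlap moved to 88.4%, 73.7% and 18.4% of common, Bcl11b-alone and GATA3-alone sites with 50% overlap. With all lists, Runx3 included, cut to their upper 50%, it moved to 87.7% and 74.8% of the first and second, and was 20.7% of the third. With the sites alone cut to their upper 50% by score and the Runx3 list whole, it was 94.1%, 85.1% and 28.0%. The cause was not tested, and the order of the classes was the same under these settings.

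Without the filter on low values more genes were tested (16707), and 615 were called in all, or 3.68%. With common sites 280 were called (7.28%), with only Bcl11b alone 92 (3.86%) and with only GATA3 alone 66 (2.20%). With promoter-TSS peaks as the only link the counts were 76 (19.3%), 476 (13.8%) and 63 (14.5%), beside 14.5% of all tested genes. Leaving out 1 library gave 779 to 2199 genes in all, 358 to 835, 113 to 380 and 79 to 251 in the same classes. Of 64 named genes in the test 47 kept call and direction under every setting in which they were tested. Some named genes did not pass the filter when a library was left out. No named gene called in the main fit or in an alternative changed sign between them. Signs of genes called in neither were not compared.

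The replicate numbers are not stated to pair the libraries. Deviations of same-numbered libraries correlated at 0.11 over 10526 genes, with 2 pairs. With the replicate block 2258 genes were called in all, or 21.5% of those tested. With common sites 870 were called (29.8%), with only Bcl11b alone 386 (19.5%) and with only GATA3 alone 267 (19.3%). Depth of 35.2 to 38.7 M reads makes 1 read on a 2 kb transcript worth 0.013 to 0.014 RPKM, so low genes rest on few reads.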
